A study of Mus musculus with 9 samples.

Results

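Small leucine-rich proteoglycans are secreted matrix proteins with a short core of leucine-rich repeats, most of which carry chondroitin, dermatan or keratan sulfate chains. The study's arrays measured 9 genes of the family, chosen by name, each with 1 probe set of its own symbol, among 19938 genes in all. They are Dcn, Bgn and Aspn of class I, Lum, Kera, Fmod, Prelp and Omd of class II, and Ogn of class III. The proteins bind collagen fibrils and limit or order their growth, and several also bind TGF-beta or cell surface receptors. Fibroblasts are a main source of them, and they are abundant in tendon, skin, cartilage, bone and the cornea.

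RNA came from 9 mouse samples on Affymetrix whole-transcript arrays, 3 per group. The induced pluripotent cells (iPS) were derived from embryonic fibroblasts, R1 is an established mouse embryonic stem cell line, and the embryonic fibroblasts (MEF) were cultured below passage 3 and were the cells used to derive the iPS line. The design text names R1 and MEF as the controls of the iPS cells and calls the 3 arrays of each line biological repeats. The sources used here do not state strain, sex, reprogramming agents, feeder cells or how many lines were derived. The p-values therefore cover only how far these cultures differ from each other, and that spread may be technical.

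Deposited signals are linear intensities. Differences are of log2(signal + 16), tested with limma in 1 fit over all 9 arrays with Benjamini-Hochberg adjustment over all genes. A call required an adjusted p below 0.05 together with a difference of at least 1 in size, and the words rose and fell mark calls alone. Array medians lay between 78.25 and 83.29. The labels held against marker genes: Pou5f1 averaged 4137 in iPS, 4706 in R1 and 53.0 in MEF arrays, and the fibroblast surface gene Thy1 averaged 255, 233 and 1975 in the same order. In RNA from whole cultures, fewer cells of a type and less RNA per cell cannot be told apart.

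Of the 9 genes, 4 fell in iPS cells against MEF and 0 rose, while 7.58% of all genes fell and 5.08% rose. The 4 were Bgn, Aspn, Fmod and Ogn. Without regard to direction, 12.7% of all genes were called in iPS and 13.5% in R1 cells against MEF. In R1 cells against MEF the count was again 4 lower and 0 higher, against 7.94% and 5.56% of all genes. The median difference of the 9 genes was -0.73 in both comparisons, where the median over all genes was 0.02 in each. Both comparisons use the same MEF arrays. Between iPS and R1 cells limma called 0 of the 9 genes, and 0 had an unadjusted p under 0.05, with 0.461% of all genes called (0.296% higher, 0.166% lower). By the adjusted p alone, without a minimum difference, 7 of 9 genes passed in iPS cells against MEF (48% of all genes), 7 of 9 in R1 cells against MEF (48.9%) and 0 of 9 in iPS against R1 (8.52%). The shares for all genes are thus large by that rule, and the counts below rest on the stricter one.

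**Figure D1:**
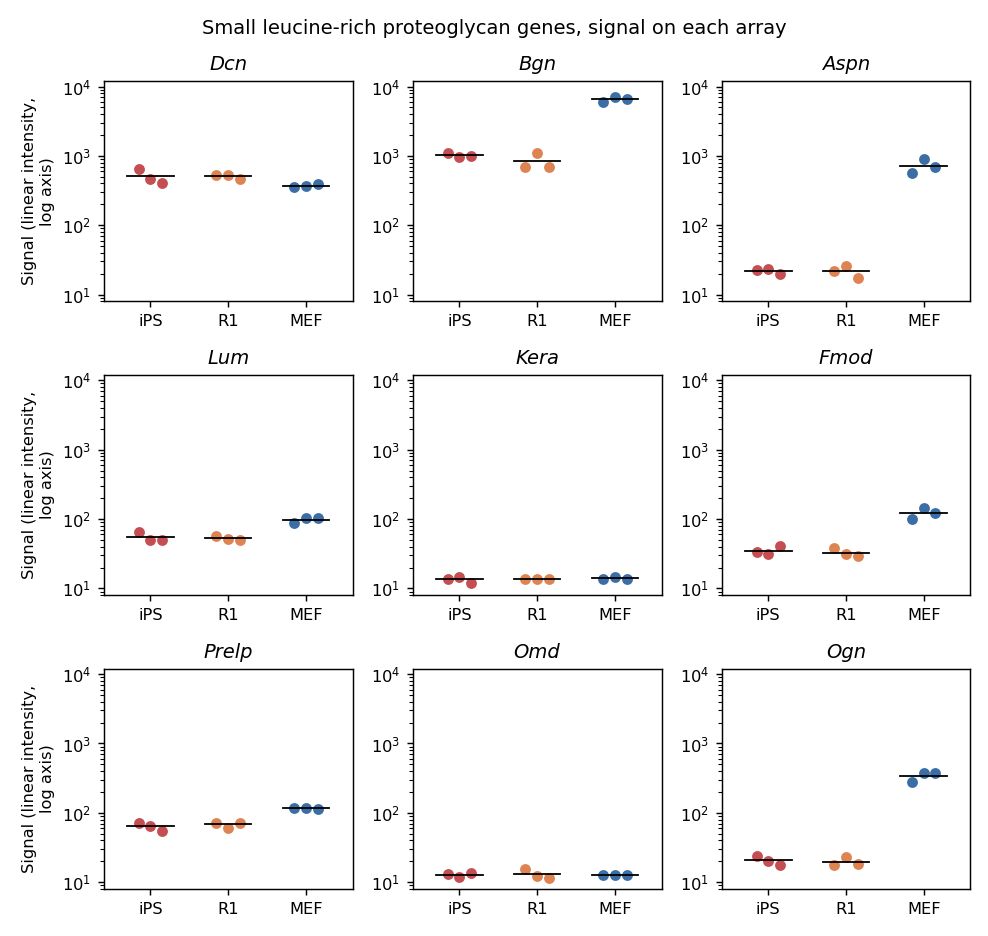
Signal of each of the 9 genes on every array (linear intensity on a log axis), with iPS, R1 and MEF side by side; points are arrays and lines are group means. Bgn, Aspn, Fmod, Ogn, Lum and Prelp stood higher on every MEF array than on any iPS or R1 array. Dcn was the gene whose MEF arrays all lay below the iPS and R1 arrays.

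Among the class I genes, biglycan (Bgn), a dermatan sulfate proteoglycan encoded on the X chromosome, fell in both pluripotent lines. Its signals were 1082, 976 and 989 on iPS arrays, 689.8, 1113 and 689.8 on R1 arrays, and 6081, 6985 and 6517 on MEF arrays. Every iPS and R1 array lay far below every MEF array. The difference was -2.66 ± 0.16 (SE) in iPS against MEF (limma adjusted p = 4.73e-07) and -2.98 ± 0.16 in R1 against MEF (limma adjusted p = 1.91e-07). A signal remained in the pluripotent cultures, at 15.6% of the MEF mean in iPS and 12.7% in R1 cells, where the gene still ranked at the 93.0 and 90.6 percentile of all genes.

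Replicate 2 of R1 was the outlying array for Bgn. The same array held the highest R1 signal of Col1a1, a type I collagen chain, at 1024 against 626 and 704 on replicates 1 and 3. Its summed signal of 14 fibroblast markers was also the highest, at 7080 against 5636 and 5790. Of these 14 markers, 10 were highest on replicate 2, 2 on replicate 1 and 2 on replicate 3. Over all genes replicate 2 was the highest R1 array in 29.7%. The iPS and R1 cells differed in Bgn by 0.32 (95% interval -0.04 to 0.68; limma adjusted p = 0.314). Without R1 replicate 2 this difference was 0.55 (limma adjusted p = 0.00356), below the minimum for a call. R1 replicates 1 and 3, which then remain, had the same Bgn signal of 689.8, so that p rests on a tie. Across 28 alternative settings the limma adjusted p of this difference was 0.05 or more in 26. The part of fibroblast genes in this difference was not tested.

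Asporin (Aspn), a class I relative of decorin and biglycan that binds collagen and TGF-beta, fell furthest of the 9 in both comparisons with MEF. It had 22.6, 23.8 and 19.6 on iPS arrays, 21.6, 26.0 and 17.6 on R1 arrays, and 572, 910 and 695 on MEF arrays. The iPS and R1 signals were at the 13.7 and 13.6 percentile of all genes, so they sat among the dimmest probe sets. The difference was -4.26 ± 0.15 in iPS against MEF (limma adjusted p = 1.49e-08) and -4.28 ± 0.15 in R1 against MEF (limma adjusted p = 1.17e-08). The mean was 3.03% of the MEF mean in iPS cells and 2.99% in R1 cells, which are upper limits where the dim signals hold background. With no pseudocount the differences were -5.02 and -5.05, and with a pseudocount of 64 they were -3.18 and -3.18.

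Decorin (Dcn), the best studied member of the family, which binds type I collagen and TGF-beta, had its higher values in the pluripotent cultures. Its signals were 644, 461 and 410 on iPS arrays, 526, 526 and 461 on R1 arrays, and 360, 367 and 388 on MEF arrays. The lowest pluripotent array still lay above the highest MEF array, and groups were separated in this way, in either direction, for 52.3% of all genes in iPS against MEF and for 54.4% in R1 against MEF. The difference was 0.40 ± 0.14 in iPS (95% interval 0.09 to 0.71; limma adjusted p = 0.0353) and 0.42 ± 0.14 in R1 cells (0.11 to 0.73; limma adjusted p = 0.0272), and neither was called. Without iPS replicate 1, the array with the highest Dcn signal, the iPS value was 0.22 (limma adjusted p = 0.0456). Over the alternative settings tried it ranged between 0.22 and 0.53 in iPS and between 0.38 and 0.49 in R1 cells, always above 0. All of these Dcn values rest on 1 probe set, and how well that probe set reads Dcn RNA was not tested.

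The fibroblast markers fell in the same comparisons, 14 of 14 in iPS and 14 of 14 in R1 cells against MEF, with a summed signal of 7124 to 7538 on iPS arrays, 5636 to 7080 on R1 arrays and 46554 to 51311 on MEF arrays. Their means were between 3.73% (Fbln5) and 29.6% (Vim) of the MEF mean in iPS cells and between 3.57% and 28.4% in R1 cells. Dcn was at 136% in both. The MEF signal of Dcn was at the 76.7 percentile of all genes, and in iPS and R1 cells at the 83.6 and 83.5 percentile.

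**Figure D2:**
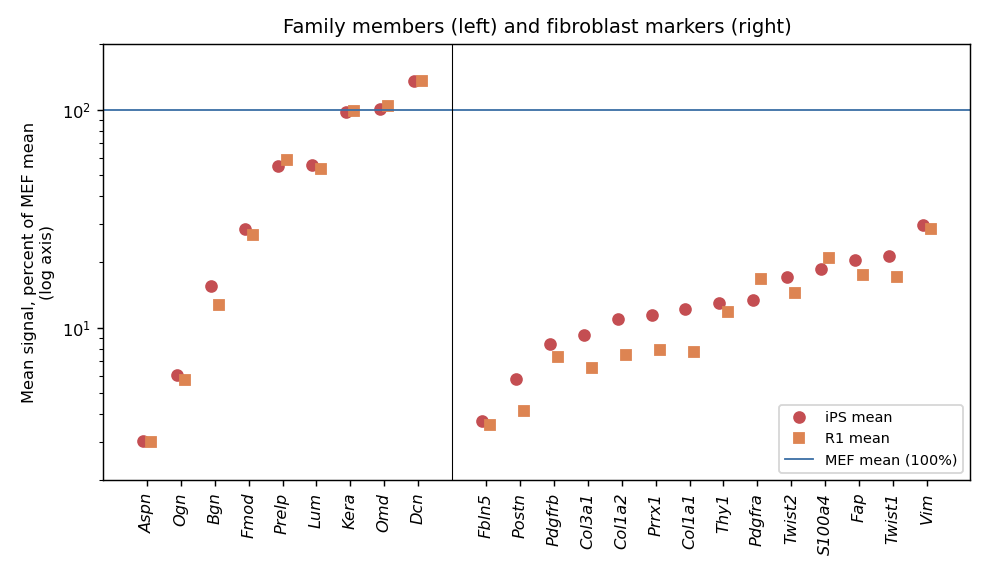
Mean iPS (circles) and R1 (squares) signal as percent of the MEF mean, on a log axis, for the 9 family members on the left and 14 fibroblast markers on the right. The markers lay between 3.57% and 29.6%, while the family members ran from 2.99% (Aspn) to 136% (Dcn).

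Markers of other cell types were counted in the same comparisons. In iPS cells against MEF, 5 of 7 skeletal muscle markers, 4 of 4 smooth muscle markers and 1 of 4 tendon markers fell, and in R1 cells 6, 4 and 1 did. Of 11 measured cartilage and bone markers, 1 rose and 1 fell in each comparison. Of 5 macrophage markers 1 rose and 0 fell, and of 5 endothelial markers 1 rose and 1 fell, in each comparison. Among all genes 7.58% fell and 5.08% rose in iPS cells, and 7.94% and 5.56% in R1 cells. A single call on such a short list is therefore no result about a cell type. The summed signal of the skeletal muscle list was 714 to 918 on iPS arrays, 689.9 to 789 on R1 arrays and 6009 to 7251 on MEF arrays, and that of the smooth muscle list was 1937 to 2271, 723 to 1569 and 17105 to 17800. The cartilage and bone list summed to 1524 to 1764 on iPS, 1348 to 1441 on R1 and 1613 to 1956 on MEF arrays. The iPS and MEF ranges overlapped, but these sums mix genes that moved in opposite directions. Alpl, the gene that rose, averaged 906 in iPS, 679 in R1 and 75.8 in MEF arrays. Col2a1, the gene that fell, averaged 169, 145 and 904 in the same order (both named after their values were seen). The summed signal of the tendon list was 287 to 340 on iPS arrays, 301 to 313 on R1 arrays and 988 to 1168 on MEF arrays. The 1 tendon gene that fell was tenomodulin (Tnmd; named after its values were seen), at 33.1 ± 4.66 in iPS, 32.2 ± 1.57 in R1 and 697 ± 50.8 in MEF arrays (SD, n = 3 each). The tendon transcription factor Scx (also named after its values were seen) averaged 86.2, 88.7 and 121 in the same order and was not called. No deposited value was below 4, so no list could sum to 0, and a sum above 0 does not show that a cell type was present. The part of these cell types in the levels of the proteoglycan genes was not tested.

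Of the class II genes, fibromodulin (Fmod), a keratan sulfate proteoglycan that binds type I collagen, was the one that fell. It had 33.1, 31.8 and 40.5 on iPS arrays, 38.3, 30.9 and 29.0 on R1 arrays, and 100.4, 146 and 124 on MEF arrays. The MEF arrays did not overlap the others. The difference was -1.44 ± 0.12 in iPS (limma adjusted p = 5.15e-06) and -1.51 ± 0.12 in R1 cells (limma adjusted p = 3.39e-06). With a pseudocount of 64 the differences were -0.91 and -0.95, under the minimum for a call.

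Lumican (Lum), which orders collagen fibrils in skin and cornea, had smaller gaps. Its signals were 65.3, 49.5 and 49.5 on iPS arrays, 56.9, 51.3 and 49.2 on R1 arrays, and 88.0, 104 and 102 on MEF arrays. Every MEF array was above every other array, yet the difference of -0.69 ± 0.09 in iPS (limma adjusted p = 0.000147) and -0.73 ± 0.09 in R1 cells (limma adjusted p = 9.31e-05) stayed under the minimum.

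Prelp, a heparin-binding member that anchors basement membranes to connective tissue, also had its higher values in MEF. It had 72.0, 64 and 54.9 on iPS arrays, 72.0, 60.5 and 72.0 on R1 arrays, and 118.6, 117 and 112 on MEF arrays. The MEF arrays again did not overlap the others. The difference was -0.73 ± 0.08 in iPS (limma adjusted p = 4.22e-05) and -0.65 ± 0.08 in R1 cells (limma adjusted p = 9.49e-05), neither of them called.

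Kera and Omd were at the bottom of the signal range in every group. Keratocan (Kera), a keratan sulfate proteoglycan of the cornea, had 12.1 to 14.8 on iPS arrays, 13.7 to 13.8 on R1 arrays and 13.5 to 14.7 on MEF arrays. Osteomodulin (Omd), known from bone, had 11.8 to 13.5 on iPS arrays and 11.5 to 15.7 on R1 arrays, and the same value of 12.7 was listed on all 3 MEF arrays. Both were between the 6.27 and 7.44 percentile of all genes in each group, and the groups overlapped. Their differences from MEF lay between -0.02 and 0.02, with 95% intervals between -0.12 and 0.15. No detection calls were used, so such signals cannot be told apart from background.

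Osteoglycin (Ogn, also called mimecan), the class III member, fell. It had 24.1, 19.97 and 17.9 on iPS arrays, 17.5, 23.3 and 18.3 on R1 arrays, and 276, 372 and 375 on MEF arrays. Every MEF array stood far above every iPS and R1 array, and the iPS signals were at the 12.8 percentile of all genes. The difference was -3.28 ± 0.12 in iPS (limma adjusted p = 1.90e-08) and -3.31 ± 0.12 in R1 cells (limma adjusted p = 1.43e-08).

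**Figure D3:**
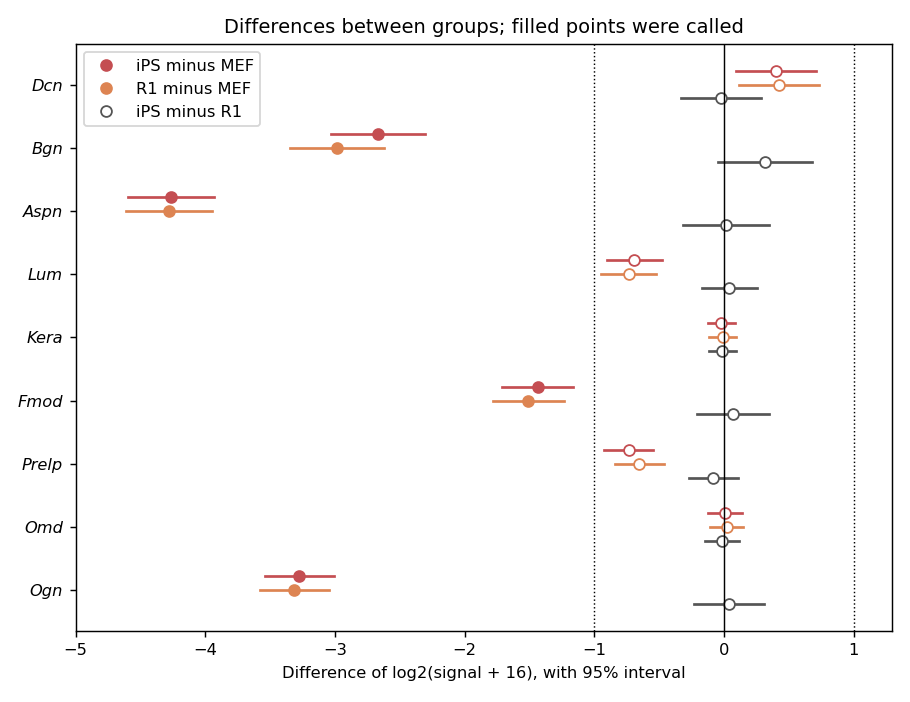
Differences of log2(signal + 16) for the 9 genes with 95% intervals of the fit, for iPS minus MEF, R1 minus MEF and iPS minus R1; filled points were called and dotted lines mark the minimum difference of 1. The iPS minus R1 points lay between -0.08 and 0.32, and none was called.

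Between the pluripotent lines the 9 differences ran from -0.08 (Prelp) to 0.32 (Bgn), with a median of 0.01 against -0.01 for all genes. The 95% intervals of the 9 lay within -0.33 and 0.68 on the log2(signal + 16) scale. For Aspn, Ogn, Kera and Omd both lines had signals among the dimmest genes, where the added 16 narrows the intervals, so they set no limit on a difference in expression. The groups overlapped for all 9 genes, while they did not overlap for 21.9% of all genes. For Aspn the interval was -0.32 to 0.35 and for Ogn -0.23 to 0.31. A p that misses the threshold does not show that the lines have the same level.

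The MEF arrays also differed among themselves. Replicate 1 was the lowest MEF array for Dcn, Bgn, Aspn, Fmod, Lum and Ogn, and it also had the lowest summed signal of the fibroblast markers among the MEF arrays (46554, against 51311 and 49023 on replicates 2 and 3). The standard deviation of the MEF arrays was 23.6% of the mean for Aspn, 18.5% for Fmod, 16.5% for Ogn, 6.93% for Bgn and 3.97% for Dcn. For Bgn, Aspn, Fmod and Ogn these spreads were small beside the gap to the pluripotent arrays. The mean of Dcn in iPS and in R1 cells was 1.36 times that in MEF, and its iPS arrays varied by 24.3% of their mean.

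Members other than Bgn lie beside another gene of the family, and on chromosomes 13 and 1 such neighbours differed in their calls. In the RefSeq gene table of assembly GRCm38.p6, the coding genes Ecm2, Aspn, Omd, Ogn and Nol8 follow each other on chromosome 13. Aspn and Ogn fell, while Omd between them and Ecm2, which encodes another leucine-rich matrix protein, stayed at the dimmest signals. Ecm2 had means of 10.8 in iPS, 10.2 in R1 and 11.6 in MEF arrays. On the other side, Nol8, a nucleolar protein gene, rose, with 1221 in iPS and 1381 in R1 against 442 in MEF arrays, a difference of 1.43 ± 0.09 in iPS against MEF (limma adjusted p = 4.99e-07). Cenpp, a centromere protein gene that overlaps Ecm2, Aspn, Omd and Ogn in this table, also rose, by 1.31 ± 0.13 (limma adjusted p = 1.43e-05). Where genes overlap, a probe set could read RNA of both, which was not tested.

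The sequences of the 250 bases before the start of Aspn, Omd and Ogn are shown because these neighbours, transcribed from the same strand, differed in their calls. The sequence of Bgn on the X chromosome is given for comparison. The Omd signal cannot be told apart from background in any group, so whether Omd RNA changed is not known. Of the 9 genes 7 matched an entry of the RefSeq promoter table. Capitals mark matches to TATAAA on either strand. In Aspn these begin 207 and 178 bases before the start, and in Ogn they begin 229 and 227 bases before it and overlap each other on opposite strands.
Aspn (GRCm38.p6, chr13:49544193-49544442, plus strand): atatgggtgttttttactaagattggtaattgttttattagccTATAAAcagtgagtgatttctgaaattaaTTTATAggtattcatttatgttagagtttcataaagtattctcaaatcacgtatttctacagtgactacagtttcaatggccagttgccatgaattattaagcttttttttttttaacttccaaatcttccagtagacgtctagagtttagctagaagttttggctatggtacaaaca
Omd (GRCm38.p6, chr13:49582212-49582461, plus strand): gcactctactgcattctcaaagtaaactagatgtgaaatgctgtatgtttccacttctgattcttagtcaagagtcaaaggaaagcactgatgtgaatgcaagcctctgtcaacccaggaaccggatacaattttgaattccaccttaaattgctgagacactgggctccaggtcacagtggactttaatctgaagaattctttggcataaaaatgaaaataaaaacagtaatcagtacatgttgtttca
Ogn (GRCm38.p6, chr13:49607765-49608014, plus strand): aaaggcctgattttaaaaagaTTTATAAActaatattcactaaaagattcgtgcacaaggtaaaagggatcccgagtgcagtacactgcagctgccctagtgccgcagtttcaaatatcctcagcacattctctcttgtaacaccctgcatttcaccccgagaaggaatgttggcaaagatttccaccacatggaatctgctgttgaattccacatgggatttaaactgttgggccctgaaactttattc
Bgn (GRCm38.p6, chrX:73483351-73483600, plus strand): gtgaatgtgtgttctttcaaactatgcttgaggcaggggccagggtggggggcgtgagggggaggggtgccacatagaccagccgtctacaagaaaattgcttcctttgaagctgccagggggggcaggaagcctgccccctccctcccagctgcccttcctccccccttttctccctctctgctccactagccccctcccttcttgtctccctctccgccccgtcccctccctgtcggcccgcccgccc
TATAAA was found in 12.4% of 32851 promoter windows of the same length. The AP-1 letters TGANTCA, found in 6.75% of windows, were in none of the 7 members' windows. The Smad letters CAGAC, found in 42.2% of windows, were in the windows of Fmod (2 matches, 195 and 148 bases before the start) and Prelp (1 match, 161 bases before it) and in none of the other 5. The share of G and C was 30% in Aspn, 38.4% in Omd, 42% in Ogn and 64.4% in Bgn, against a median of 52.4% over all windows. A match is a description of letters, and none of these windows is known here to be bound by a factor.

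On chromosome 10 the order was Dcn, Lum, Kera and Epyc. The values differed among these neighbours, as Dcn was higher without being called, Lum was lower without being called, Kera was among the dimmest genes, and Epyc (epiphycan, of cartilage) averaged 21.7 in iPS, 20.1 in R1 and 22.8 in MEF arrays. On chromosome 1 the order was Optc, Prelp and Fmod. Opticin (Optc), known from the eye, averaged 42.7, 45.7 and 52.4 in iPS, R1 and MEF arrays and was not called, so of the trio Fmod alone fell. On the X chromosome the coding neighbours of Bgn were Haus7, with -0.47 ± 0.13 in iPS against MEF (limma adjusted p = 0.0145), and Atp2b3, with 0.02 ± 0.06 (limma adjusted p = 0.813), neither of them called.

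**Figure D4:**
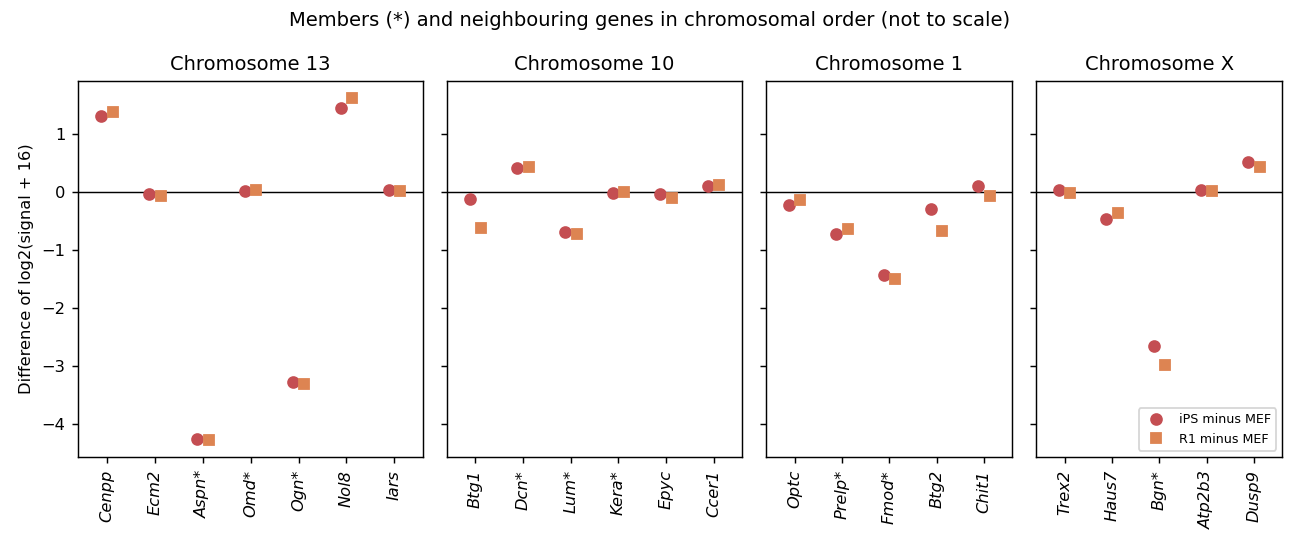
Differences of log2(signal + 16) in iPS minus MEF (circles) and R1 minus MEF (squares) for the family members (marked by an asterisk) and measured coding neighbours, in chromosomal order and not to scale. Aspn and Ogn stand below -3 on either side of Omd at 0.01 and 0.02, and Nol8 and Cenpp stand above 1.

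None of the other measured members of the family was called. Of 8 measured genes (Epyc, Optc, Chad, Chadl, Nyx, Podn, Podnl1 and Ecm2) limma called 0 in iPS and 0 in R1 cells against MEF, with 3 and 2 at an unadjusted p under 0.05, all of them lower. Over all genes 51.8% and 52.8% had such a p, so the counts of 3 and 2 are below the background. Calls were made for 12.7% of all genes in iPS and 13.5% in R1 cells against MEF. A count of 0 of 8 is near those shares and is no result about these genes. Ecm2, Epyc, Chad and Optc averaged 52.4 or less in every group, so low signal limits them. Podnl1, a class V member, was the furthest from 0, at -0.71 in iPS and -0.64 in R1 cells (named after its values were seen).

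The collagens to which these proteoglycans bind fell with few exceptions. Of 18 collagen chains and other fibril partners, 16 fell in iPS and 16 in R1 cells against MEF and 0 rose, with a median of -2.63 and -2.78. Col12a1, a fibril-associated collagen, averaged 229 in iPS and 155 in R1 against 3712 in MEF arrays, and Col5a2, a chain of type V collagen, averaged 179 and 139 against 2383. The differences were -3.94 ± 0.15 and -4.45 ± 0.15 for Col12a1 and -3.62 ± 0.10 and -3.96 ± 0.10 for Col5a2, in iPS and in R1 cells. Over all genes 7.58% and 7.94% fell.

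Of 26 growth factors and receptors that family members bind, 12 fell in iPS and 13 in R1 cells and 0 rose, with medians of -0.94 and -1.08. The share of all genes that fell was 7.58% in iPS and 7.94% in R1 cells. The ligand gene Tgfb3 averaged 110.0 in iPS and 77.2 in R1 against 2222 in MEF arrays (differences of -4.15 ± 0.17 and -4.63 ± 0.17). Met, a receptor tyrosine kinase that decorin binds, averaged 71.1 in iPS and 93.2 in R1 against 572 in MEF arrays (-2.75 ± 0.11 in iPS).

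The sugar chains of the family are built by enzymes of the Golgi. Of 26 genes for the linkage region and for chondroitin and dermatan sulfate, 11 fell in iPS and 13 in R1 cells and 0 rose. Chst14, which sulfates dermatan chains such as those of decorin and biglycan, averaged 113 in iPS and 91.0 in R1 against 545 in MEF arrays (-2.12 ± 0.08 and -2.40 ± 0.08), and the uronyl sulfotransferase Ust fell by 2.31 and 2.54. Of 10 keratan sulfate genes, 2 rose and 4 fell in iPS cells, and 2 rose and 3 fell in R1 cells. Among all genes 7.58% fell and 5.08% rose in iPS cells, and 7.94% and 5.56% in R1 cells.

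Within the keratan sulfate list the members moved in both directions. The chain-extending transferases B3gnt2 and B3gnt7 rose, with B3gnt7 at 329 in iPS and 425 in R1 against 146 in MEF arrays (1.09 ± 0.06 and 1.44 ± 0.06). The sulfotransferase Chst2 fell, at 129 in iPS and 103 in R1 against 1315 in MEF arrays (-3.19 ± 0.12 and -3.48 ± 0.12). Fut8, which adds core fucose to N-linked chains, fell in iPS cells (-1.25 ± 0.09). It averaged 134 in iPS and 141 in R1 against 340.5 in MEF arrays.

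Of 19 proteases and enhancers that can act on the family, 8 fell and 1 rose in each comparison with MEF. Among all genes 7.58% fell and 5.08% rose in iPS cells, and 7.94% and 5.56% in R1 cells. A count of 1 riser in 19 is thus near the background. The gene that rose was Mmp3, stromelysin-1, which can cleave decorin, at 694 in iPS and 594 in R1 against 78.5 in MEF arrays (2.90 ± 0.11 and 2.69 ± 0.11). Tll1, a tolloid-like metalloprotease of the family that removes procollagen and biglycan propeptides, averaged 90.9 in iPS and 69.8 in R1 against 1122 in MEF arrays (-3.41 ± 0.19 and -3.78 ± 0.19). Adamts5, an aggrecan-cleaving protease, also fell (-3.70 ± 0.14 and -3.56 ± 0.14).

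Of 27 core proteins of other proteoglycan families, 12 fell in iPS and 12 in R1 cells and 0 rose, with medians of -0.96 and -0.98. The share of all genes that fell was 7.58% in iPS and 7.94% in R1 cells. Cd44, the hyaluronan receptor, averaged 135 in iPS and 96.0 in R1 against 1142 in MEF arrays (-2.94 ± 0.14 and -3.40 ± 0.14). Ptprz1, a receptor phosphatase that carries chondroitin sulfate, fell by 2.59 in iPS cells. It averaged 25.2 in iPS and 23.7 in R1 against 232 in MEF arrays. Of the 134 measured genes on these 7 lists, replicate 2 had the highest R1 signal in 65, replicate 1 in 41 and replicate 3 in 18, with 10 ties. Over all genes replicate 2 was the highest R1 array in 29.7%. Tgfb3, Tll1 and Cd44 were among the genes highest on replicate 2, and Met and Adamts5 were highest on replicate 1.

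**Figure D5:**
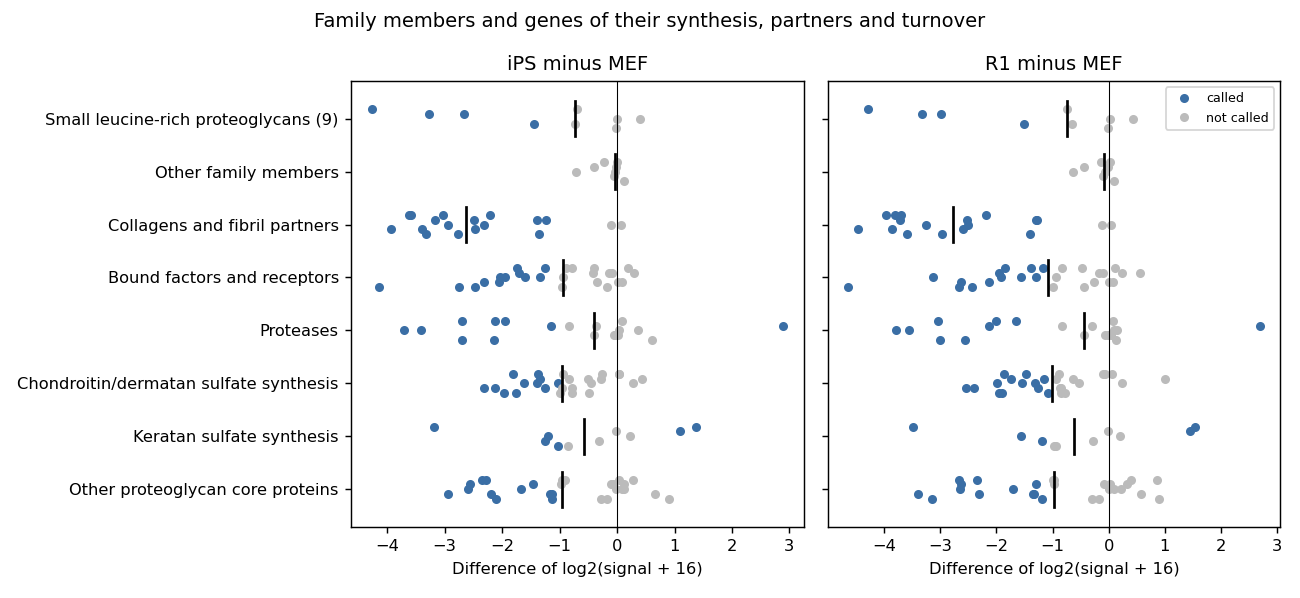
Differences of log2(signal + 16) in iPS minus MEF and R1 minus MEF for the 9 family members and 7 lists of related genes; each point is a gene, blue points were called and black bars are list medians. The medians of the 9 members were -0.73 in both panels, against -2.63 and -2.78 for collagens and fibril partners.

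Genes with the most similar course over the 9 arrays were found by the root mean square difference of values centred on each gene's mean. For Aspn these were pleiotrophin (Ptn, 0.15 log2 units), Lrrc17 (0.15) and the fibrillin gene Fbn2 (0.16). For Bgn they were the fibulin gene Fbln2 (0.07), Pappa, a protease of IGF-binding proteins (0.07), and Igfbp7 (0.07). Ogn was nearest to Msrb3, Tgfb1i1 and Epha3 (0.11 to 0.12), and Fmod to Map3k7cl, Fv1 and Hoxc9 (0.09 to 0.10). All of these genes share the 9 arrays and a lower level in both pluripotent lines. The other 5 members had group means less than 1 apart and were not matched.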

How the data were processed

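RNA was measured on 9 whole-transcript arrays, 3 each of iPS, R1 and MEF, grouped by sample title. The authors deposited linear intensity values, 1 per probe set, and GCOS 1.4 is listed, with no stated role, in the submitters' processing notes. How background, summarization and normalization were handled is not stated there. Values lay between 4 and 18820.3, and their log2 values had 2 decimals (to within 7e-10). Array medians lay between 78.25 and 83.29, so no further normalization was applied. No arrays were identical.

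The platform annotation gave 1 symbol for 21789 of 35557 probe sets and several for 1621, and it did not list 12147. Of the 21789, 21698 were found by Entrez identifier in a RefSeq table (GRCm38.p6), and 0 symbols changed. Where 999 genes had several probe sets, the brightest by mean was used, leaving 19938. limma 3.58.1 (R 4.3.3) fitted log2(signal + 16) with a mean per group and 6 residual degrees of freedom. The members and gene lists were chosen with earlier results of these data known. Named genes are all 9 members, up to 2 called genes per direction of each list, the 3 nearest genes of each member with a step of 1 or more, label checks, and the coding genes next to members; others are said to be named after their values were seen. Dim signals and 3 arrays per group limit precision. Alternatives covered normalization, filters, pseudocount, probe sets, variance model, thresholds, the replicate number as a block and left-out arrays. Fold differences on this scale understate changes of dim genes. Promoter sequences and gene order come from RefSeq, and no protein sequences were used. The scripts were tested on simulated data.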

Additional observations from a re-analysis of the deposited data

How the results depend on the processing

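The 4 called genes in each comparison with MEF (Bgn, Aspn, Fmod and Ogn) were called, and 0 genes between iPS and R1, under the alternatives run, with these exceptions. Without a minimum difference, 7 of 9 genes passed in iPS and 7 in R1 cells against MEF, as Dcn (0.40 and 0.42), Lum (-0.69 and -0.73) and Prelp (-0.73 and -0.65) joined. Fmod dropped out with a pseudocount of 64 (-0.91 and -0.95) and with a minimum difference of 2, and was not tested with a mean signal of 100 or more, so 3 genes were called each time. Leaving out each array, or iPS replicate 1 and R1 replicate 2 together (chosen after seeing the data), gave 4 to 4 genes called against MEF and 0 to 0 between iPS and R1. Across 28 settings the adjusted p of Dcn was 0.05 or more in 10 in iPS and in 6 in R1 cells against MEF. With the replicate number as a block, 4 genes were called in each comparison with MEF and 0 between iPS and R1. Whether the replicate numbers pair the samples is not known. Correlations of same-numbered deviations were 0.21 to 0.24 for replicate 1. They were 0.02 to 0.20 for replicate 2 and -0.08 to -0.02 for replicate 3. Of 9 arrays, 4 correlated best with their own number, which cannot exclude a shared batch. Calls over all genes in iPS against MEF numbered 2524, 9572 without a minimum difference (40.1% and 51.7% higher), 689 at a minimum of 2 and 1643 when tested against 1. In R1 against MEF they were 2691, 9750 (41.2% and 52.9% higher) and 759, and in iPS against R1 they were 92, 1699, 6 and 10, with 45 at a pseudocount of 64 and 144 over all probe sets. No alternative normalization changed a call among the 9 genes. Low signal limits Kera and Omd, whose levels cannot be told apart from background.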

Other observations

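Among genes of the related lists, 2 were called between the pluripotent lines, both higher in iPS cells. Ccn2, which encodes connective tissue growth factor, had 1938, 1746 and 1911 on iPS arrays against 781, 1053 and 657 on R1 arrays, a difference of 1.18 ± 0.14 (limma adjusted p = 0.00123). The syndecan gene Sdc2, a heparan sulfate proteoglycan of the cell surface, had 159, 177 and 185 on iPS arrays against 67.6, 91.1 and 73.0 on R1 arrays, a difference of 1.03 ± 0.10 (limma adjusted p = 0.000385). The arrays of the lines did not overlap for either gene, which held for 21.9% of all genes, and 0.461% of all genes were called in this comparison. The smooth muscle genes Acta2 (1.15 ± 0.27; limma adjusted p = 0.0334) and Tagln (1.17 ± 0.24; limma adjusted p = 0.0176) were also higher in iPS cells, and R1 replicate 2 had the highest R1 signal of Ccn2, Sdc2, Acta2 and Tagln, as it had of Bgn. On the marker lists 1 further gene was called, and it was lower in iPS cells. This was the pluripotency gene Zfp42 (Rex1), with 446, 519 and 553 on iPS arrays against 3541, 3795 and 3281 on R1 arrays, a difference of -2.77 ± 0.11 (limma adjusted p = 2.92e-06). Acta2, Tagln and Zfp42 were named after their values were seen.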
